A study of Mus musculus with 48 samples.

Results

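The 500 autosomal regions with the densest capture in methyl-CpG-binding domain (MBD) sequencing of mouse intestine are described here, out of 89701 autosomal regions narrower than 5000 bp and 95882 regions in all. They were chosen by their own level: counts scaled to a library total of 1000000 (CPM), averaged over all 48 libraries and divided by the width of the region in kb. The capture density, which chose them, is therefore given as a description. DNA from 4 sections of the intestine (duodenum, jejunum, ileum and colon) of each of 12 mice was sheared, fragments carrying methylated CpG were pulled down with an MBD protein, and the captured fragments were sequenced and counted in peak regions.

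The GermFree group held 7 mice, labelled as germ free, and the ConvR group held 5 mice, labelled ConvR, a term that the labels do not spell out. Each section thus had 7 GermFree and 5 ConvR libraries. The sources used here give no strain, no age and neither time nor source of any colonization. Sections of intestine hold several cell types. A change in captured DNA within a cell type and a change in the mixture of cell types therefore cannot be told apart. Library totals ran between 1007560 and 3033782 counts, and a member region held a median of 14 to 31 counts per library. No RNA was measured, so section and cell type were not checked against expression markers.

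In mammalian DNA most CpG sites outside CpG islands are methylated, and the methyl-CpG-binding domain holds fragments more strongly the more methylated CpG sites they carry. Tandem repeats, recently duplicated gene families and other sequence that is present in many near-identical copies are kept methylated in somatic tissue, and reads from all copies can be placed on the few copies that a reference genome holds. The counts of such regions therefore reflect methylation, CpG number and copy number together, and the sources used here do not say how reads with several possible positions were counted.

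13 members overlapped a promoter window (250 bases before to 50 after an annotated start), with 17 windows of 14 genes. Windows are shown for the member of the highest density with an annotated start (Gm40237), the most CpG-rich window (D530033B14Rik), an embryonic homeobox gene (Duxf3), a zinc finger gene (Zfp982) and a pair of related genes without CpG in the window (Gm21149 and Speer4d). The sequences are RefSeq promoters of build GRCm38.p6, printed 5′ to 3′ on the strand of the gene with each CG in capitals.
Gm40237: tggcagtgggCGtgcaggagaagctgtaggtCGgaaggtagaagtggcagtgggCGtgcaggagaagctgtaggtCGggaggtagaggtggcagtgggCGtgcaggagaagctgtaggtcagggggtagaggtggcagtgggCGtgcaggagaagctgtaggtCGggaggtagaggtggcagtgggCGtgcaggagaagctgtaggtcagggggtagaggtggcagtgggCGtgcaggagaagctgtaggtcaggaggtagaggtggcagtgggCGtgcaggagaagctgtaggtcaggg
D530033B14Rik: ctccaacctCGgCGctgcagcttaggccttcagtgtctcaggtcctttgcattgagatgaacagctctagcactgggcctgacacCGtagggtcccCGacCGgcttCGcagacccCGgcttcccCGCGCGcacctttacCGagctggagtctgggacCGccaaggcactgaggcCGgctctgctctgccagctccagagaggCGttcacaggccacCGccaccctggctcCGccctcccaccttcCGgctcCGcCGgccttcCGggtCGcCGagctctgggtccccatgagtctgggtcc
Duxf3: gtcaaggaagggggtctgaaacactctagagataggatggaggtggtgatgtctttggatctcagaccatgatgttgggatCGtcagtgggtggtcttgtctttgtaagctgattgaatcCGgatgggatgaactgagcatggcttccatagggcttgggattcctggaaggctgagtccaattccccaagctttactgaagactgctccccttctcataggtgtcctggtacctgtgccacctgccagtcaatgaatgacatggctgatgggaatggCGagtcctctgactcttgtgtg
Zfp982: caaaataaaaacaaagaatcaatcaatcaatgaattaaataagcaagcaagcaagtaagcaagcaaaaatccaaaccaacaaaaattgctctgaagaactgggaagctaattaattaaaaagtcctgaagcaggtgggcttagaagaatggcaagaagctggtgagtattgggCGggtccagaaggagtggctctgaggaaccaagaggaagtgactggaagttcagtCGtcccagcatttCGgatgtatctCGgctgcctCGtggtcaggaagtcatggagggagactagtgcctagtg
Gm21149: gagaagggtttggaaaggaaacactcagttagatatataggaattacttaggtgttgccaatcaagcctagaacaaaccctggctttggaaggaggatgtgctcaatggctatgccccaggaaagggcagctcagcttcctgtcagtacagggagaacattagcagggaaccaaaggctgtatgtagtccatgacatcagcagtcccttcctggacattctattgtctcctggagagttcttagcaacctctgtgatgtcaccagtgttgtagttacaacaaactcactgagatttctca
Speer4d: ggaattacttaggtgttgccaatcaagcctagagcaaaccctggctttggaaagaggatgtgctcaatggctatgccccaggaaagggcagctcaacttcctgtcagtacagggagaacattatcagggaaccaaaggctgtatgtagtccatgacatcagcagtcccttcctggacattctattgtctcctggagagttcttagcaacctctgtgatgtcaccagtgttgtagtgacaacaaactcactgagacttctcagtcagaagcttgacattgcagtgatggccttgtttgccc
The Gm40237 window lies at chr4:118547156-118547455 on the plus strand, that of D530033B14Rik at chr7:38183733-38184032 on the minus strand, that of Duxf3 at chr10:58233040-58233339 on the minus strand, that of Zfp982 at chr4:147492167-147492466 on the plus strand, that of Gm21149 at chr5:15476487-15476786 on the minus strand and that of Speer4d at chr5:15618849-15619148 on the plus strand. They held 10, 22, 3, 5, 0 and 0 CG in that order, and the 17 windows held a median of 6 CG, the same median as 2349 promoters over other autosomal regions under 5000 bp, against a median of 7 over 31396 autosomal promoters in the table. In the Gm40237 window the 25-base string TGGCAGTGGGCGTGCAGGAGAAGCT, searched on both strands, occurred 7 times at a spacing of 44 bases, so that the window is a tandem repeat with 1 CG in each copy of the string. The string was in 2 of 32851 promoter windows (0.00609%), both of Gm40237. The windows of Gm21149 and Speer4d, at members of rank 166 and 202, were identical at 255 of 261 overlapping bases (97.7%) when shifted by 39 bases.

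Capture density fell steeply over the first ranks and then flattened. The member of rank 1, in the predicted gene Gm33838 on chromosome 9 (35304895 to 35305876), had a density of 334 CPM per kb and that of rank 500 had 9.473, a ratio of 35.2. The median member had 11.1 CPM per kb and the median autosomal region under 5000 bp had 6.34. The regions at the threshold hardly differed: the last 5 members had 9.473 to 9.481 CPM per kb and the 5 regions just outside had 9.466 to 9.471. 77 members were above 20 CPM per kb, 16 above 50 and 6 above 100. After Gm33838, the rest of the 10 densest were a region without a gene within 5 kb on chromosome 15 (75085303 to 75087328; 256 CPM per kb), another on chromosome 12 (3109459 to 3110475; 249), Aida, a gene of axin interaction (191), Chl1, a neural adhesion gene (162), Cdk5rap2, a centrosome gene (117), a region near the start of chromosome 18 (3004506 to 3007146; 91.5), the predicted genes Gm36876 (89.0) and Gm40237 (76.9), and E030030I06Rik (75.7). The median over libraries was close to the mean in all 10, with the mean at most 1.08 times the median.

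**Figure D1:**
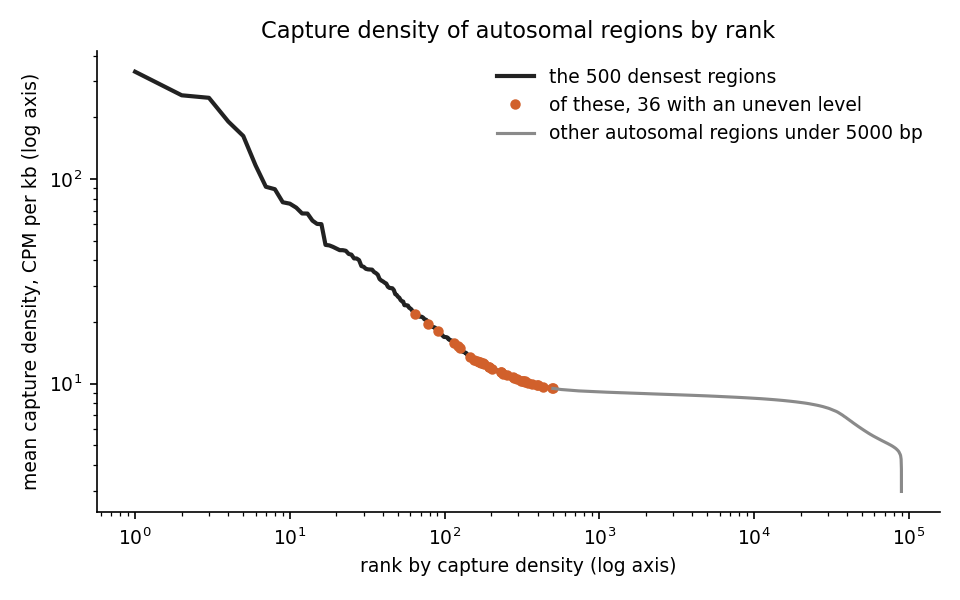
Capture density (mean CPM per kb over 48 libraries, log axis) against rank by density (log axis) for autosomal regions under 5000 bp. The line drops between 334 CPM per kb at rank 1 and 9.473 at rank 500, then lies nearly flat; orange points mark the 36 members whose mean was more than 1.3 times their median, between ranks 64 and 499.

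The 500 members covered 664 kb, 0.390% of the covered length of all regions, and held 1.22% of all counts. 260 (52.0%) overlapped an annotated gene, 63 (12.6%) had one within 5 kb and 177 (35.4%) had none, against 69.6%, 7.79% and 22.6% of the other autosomal regions under 5000 bp. Protein-coding genes were overlapped by 33.4% of members and 59.9% of the others, and pseudogenes by 7.80% of members and 2.33% of the others. 20 members (4.00%) lay within the first 3.5 Mb of a chromosome, the end next to the centromere in the mouse, against 0.360% of the others. Chromosome 4 held the most members, 55, followed by chromosome 8 with 40 and chromosome 13 with 38. As a share of the autosomal regions under 5000 bp on a chromosome, chromosome 4 was first with 0.976%. Chromosomes 13 (0.841%), 14 (0.793%) and 8 (0.755%) followed.

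Among the gene lists, 138 members (27.6%) carried a predicted gene with a Gm number, against 15.1% of the autosomal regions under 5000 bp, and 24 (4.80%) carried a zinc finger protein gene, against 0.999%. The zinc finger members of the highest density were Zfp979 (rank 112), Zfp993 (rank 119), Zfp143 (rank 126) and Zfp982 (rank 133). Copy-rich loci were represented by Sfi1 (rank 43), which encodes a centriole protein, Pisd-ps1 (rank 61) and Hjurp (rank 130), a gene of centromere assembly. Small structural RNA genes gave Rn5s-ps1 (rank 66), a region at Lrch3 (rank 200) and Rn7s2 (rank 492), which makes the RNA of the signal recognition particle. The olfactory and vomeronasal list had 4 members of 298 autosomal regions at its genes, among them Vmn1r-ps60 (rank 199) and Olfr1389 (rank 232). The natural killer list had 3 of 45, Klra7, Klrb1a and Raet1e, and the microRNA list had 2 of 249, Mir6236 and Mir101c. The imprinted list had 2 of 184, Cobl and Snrpn, and the germline list had 1 of 94, Tdrd1, a gene of the piRNA pathway. Clustered protocadherin, developmental transcription factor and DNA methylation machinery genes, and the marker lists of lymphocytes, of gut epithelium and of enteric neurons and muscle, had 0 members each, of 55, 419, 60, 67, 93 and 69 autosomal regions at their genes. For comparison, 500 of all 89701 autosomal regions under 5000 bp were members, so lists of these sizes would be expected to hold few or none.

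Many members lay close together. Stretches of at least 5 members with gaps of at most 500 kb, a definition chosen after the positions were seen, numbered 11 and held 106 members (21.2%). The stretch with the most members, 17 of 52 autosomal regions there, spanned chr8:19720477-20835841 with the genes 2610005L07Rik and 4930467E23Rik and several predicted genes. Next came 16 members of 61 regions at the zinc finger genes Zfp978, Zfp979, Zfp982, Zfp984 and Zfp993 (chr4:146717253-147822142) and 11 of 31 at Zfp600, Zfp980 and Zfp990 (chr4:145525801-146196822). In a stretch of chromosome 5 at the Speer genes, a testis-expressed family, 9 of 9 regions were members (14959353 to 15709752), with densities between 10.4 and 36.4 CPM per kb. The imprinted Snrpn and Snhg14 stretch (chr7:59433552-60288394) held 8 members of 21 regions and the Klra stretch (chr6:129984774-130947146) held 6 of 36.

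The members differed in how evenly they were captured across libraries. In 36 of the 500 (7.20%) the mean density was more than 1.3 times the median over the 48 libraries, a limit chosen after the values were seen; among all autosomal regions under 5000 bp 62 (0.0691%) exceeded it. The ratio ran between 1.303 and 2.997 in these 36 and reached 1.27 at most in the other 464. Most of these 36 regions were in the list through a few libraries: ranked by median instead of mean density, 1 of the 36 would have stayed among the top 500, against 403 of the 464. They were scattered, on all 19 autosomes, and 25 of them (69.4%) were 700 to 850 bp wide, against 24.1% of the 464 and 6.59% of the autosomal regions under 5000 bp. 19 overlapped a gene, among them Gm34259, Ppm1d, Ppp2r2b, Auts2, Gak, Cacng2, Il5, Stx12, Zfp949, Zfp266 and Rn7s2.

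In 35 of these 36 regions the high levels came in the same mice: with the sections of a mouse summed, these 35 were above 2 times their median over the 12 mice in both ConvR mouse 1 and ConvR mouse 3. The exception was the region in Ppp2r2b, a gene of a regulatory subunit of a protein phosphatase, which had 24.0 and 30.1 CPM in GermFree mice 6 and 7 and 2.51 to 5.24 in the other GermFree mice, and 4.12, 27.2, 2.54, 25.5 and 22.2 CPM in ConvR mice 1 to 5. Both groups thus held mice of high and of low level there, and ConvR mice 1 and 3 were among the low ones. Expressed relative to each region's own median over 48 libraries, the median level of the 36 was 8.86 in the duodenum, 2.76 in the jejunum, 9.25 in the ileum and 2.10 in the colon of ConvR mouse 1, and 7.72, 3.56, 4.53 and 1.27 in the same sections of ConvR mouse 3. GermFree mouse 2 followed with 3.05 in the duodenum, 1.77 in the jejunum, 1.84 in the ileum and 0.981 in the colon, and ConvR mouse 5 had 1.67 in the duodenum and 2.08 in the ileum. ConvR mice 2 and 4 lay between 0.687 and 1.04 in every section. In the duodenum of ConvR mice 1 and 3, 35 of the 36 regions were above 2 times their median. In ConvR mice 1 and 3 and GermFree mouse 2 the level was higher in each section of the small intestine than in the colon.

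**Figure D2:**
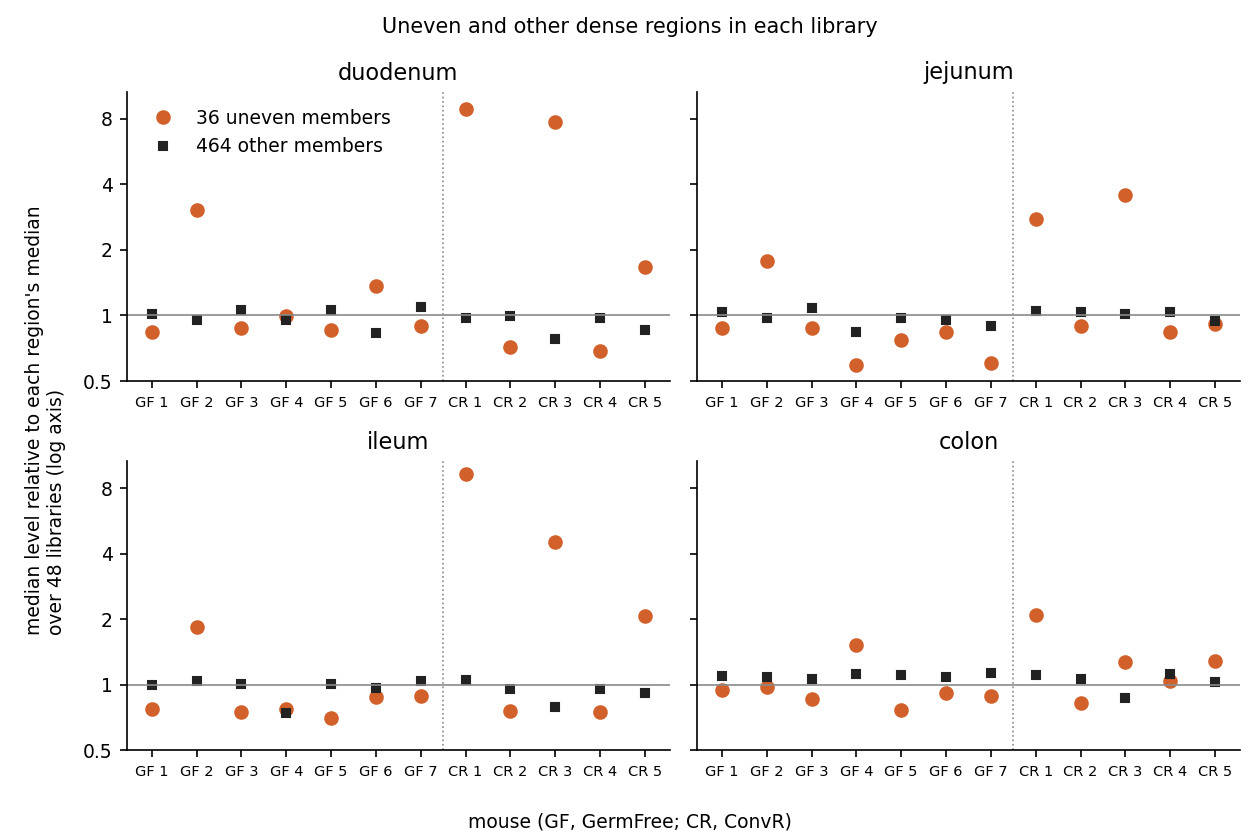
Median level of the 36 uneven members (orange circles) and of the other 464 members (black squares) in each library, relative to each region's median over 48 libraries (log axis), by section and mouse, with GermFree mice left of the dotted line and ConvR mice right of it. The uneven members reach 8.86 and 9.25 in duodenum and ileum of ConvR mouse 1 and 7.72 and 4.53 in those of ConvR mouse 3, while the other members stay between 0.746 and 1.14.

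The 464 other members had median levels of 0.746 to 1.14 in all libraries, and their lowest values were 0.746 in the ileum of GermFree mouse 4 and 0.784 and 0.791 in the duodenum and ileum of ConvR mouse 3. Beside these levels, the library totals of ConvR mouse 1 were 1227571, 1571642, 1007560 and 1572791 counts and those of ConvR mouse 3 were 1438806, 1670456, 1557005 and 2295100 counts in duodenum, jejunum, ileum and colon. The part of library size in the uneven levels was not tested.

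The region in Gm34259, a predicted gene on chromosome 17 (4625871 to 4626954), was the most uneven. With the 4 sections of a mouse summed and scaled by edgeR's TMM method, its level in the GermFree mice was 3.67 CPM at the lowest, 5.03 at the median and 15.2 at the highest, the last in GermFree mouse 2. ConvR mice 1 to 5 had 66.8, 5.21, 45.0, 5.34 and 12.9 CPM. ConvR mice 2, 4 and 5 thus lay within the GermFree range, and mice 1 and 3 lay far above it. In ConvR mouse 1 the region had 132 CPM in the duodenum and 123 in the ileum, with 31.2 in the jejunum and 16.1 in the colon. At Rn7s2 ConvR mice 1 and 3 were again the highest, followed by GermFree mouse 2 and ConvR mouse 5: the GermFree mice had 7.50, 10.1 and 28.1 CPM (lowest, median and highest), and ConvR mice 1 to 5 had 76.0, 8.14, 53.4, 7.70 and 19.99 CPM.

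GermFree mice were set against ConvR mice with the 4 sections of each mouse summed, which asks where the captured level differs between the groups. No strain, cage or litter is given. A difference by microbial state therefore cannot be told apart from a difference in sequence or copy number between the groups. All 500 members entered edgeR's quasi-likelihood test across 95882 regions, with Benjamini-Hochberg adjustment over all of them. 29 members passed an adjusted p of 0.05, 13 higher and 16 lower in GermFree mice, while 0.475% of all regions passed (0.431% higher and 0.0438% lower). 127 of the 500 members had an unadjusted p under 0.05, against 6.63% of all regions. The median log2 fold change was 0.03 over the members and 0.00 over all regions. 15 of the 16 lower members were uneven regions, and the 36 uneven regions, all but that in Ppp2r2b in the list partly through their level in ConvR mice 1 and 3, had a median log2 fold change of -1.08. With ConvR mice 1 and 3 left out, an alternative added after the data were seen, 15 members passed, 12 higher and 3 lower, against 0.42% of all regions (0.398% higher and 0.0219% lower), and the uneven regions had a median of 0.02. 12 of the 13 higher members and 1 of the 16 lower members of the full comparison passed there too. The number of lower calls also moved with single mice. It was 3 without ConvR mouse 1, 5 without ConvR mouse 3 and 4 without GermFree mouse 1. It was 3 without GermFree mouse 5 and 3 without GermFree mouse 7, but 34 without ConvR mouse 2. The share of all regions called lower in each of these fits is not given here, so these counts describe the list only. DESeq2 called 14 members, 13 higher and 1 lower, against 0.38% of all regions (0.373% higher and 0.00626% lower).

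The 1 lower member with an even level was in Sos2, which encodes an exchange factor that activates Ras. The region (chromosome 12, 69653729 to 69654663; rank 23; 44.5 CPM per kb) had 28.0, 34.7 and 36.8 CPM in the GermFree mice (lowest, median and highest). ConvR mice 1 to 5 had 60.5, 49.7, 43.8, 59.0 and 48.1 CPM. Every GermFree mouse lay below every ConvR mouse, with 33.3 ± 3.66 CPM in GermFree mice and 52.2 ± 7.23 in ConvR mice (SD, n = 7 and 5). The log2 fold change was -0.64 (SE 0.08; edgeR adjusted p = 5.81e-08), and it was -0.65 without ConvR mice 1 and 3. It was lower in each section tested alone, with log2 fold changes of -0.57 in duodenum, -0.80 in jejunum, -0.50 in ileum and -0.69 in colon, all past the threshold. In jejunum and colon it passed under all 21 alternatives, but in duodenum under 11 of 21 and in ileum under 9 of 21. The same region was higher in colon than in the other sections (log2 0.33; edgeR adjusted p = 0.00594).

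The 13 higher members were all even, and 6 of them formed the whole of the Klra stretch of members. The region in Raet1e, a ligand gene of an activating natural killer receptor (chromosome 10, 22184272 to 22185579), rose most, with 12.3, 18.6 and 22.2 CPM in the GermFree mice (lowest, median and highest) and 5.05, 6.25, 7.48, 6.83 and 6.70 CPM in ConvR mice 1 to 5. Its log2 fold change was 1.36 (SE 0.12; edgeR adjusted p = 1.69e-10). All 7 GermFree mice lay above all ConvR mice there. Klra7, a receptor gene of the Ly49 family on natural killer cells, had 7.54, 8.18 and 11.6 CPM in the GermFree mice and 4.87, 5.49, 3.67, 6.09 and 5.18 CPM in ConvR mice 1 to 5 (log2 0.84, SE 0.13), again without overlap. The other members of that stretch were at Gm15854 (log2 0.84), LOC115490339 (0.81), Gm38706 (0.71) and Gm27047 (0.66) and in a region from 130243096 to 130245627 (0.69).

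On chromosome 2, 3 members between 24700095 and 24795060 rose. Those in Cacna1b, a neuronal calcium channel gene, had log2 fold changes of 0.92 and 0.88, and that in Ehmt1, a histone methyltransferase gene, had 0.88. The denser Cacna1b region had 53.6, 64.3 and 66.4 CPM in the GermFree mice (lowest, median and highest), against 22.1, 44.5, 35.7, 40.7 and 17.2 CPM in ConvR mice 1 to 5. The groups did not overlap, and the ConvR mice spread more widely than the GermFree mice.

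St6galnac1 encodes a sialyltransferase that acts on mucin sugars. Its region (chromosome 11, 116764275 to 116768317; rank 172) had 53.1, 59.5 and 63.9 CPM in the GermFree mice and 35.0, 38.0, 40.8, 45.8 and 39.1 CPM in ConvR mice 1 to 5. The log2 fold change was 0.56 (SE 0.07; edgeR adjusted p = 1.30e-07), with all 7 GermFree mice above all ConvR mice. Within sections it passed in duodenum (0.54), jejunum (0.66) and colon (0.62) and had a log2 fold change of 0.42 in ileum (edgeR adjusted p = 0.202). Mup22, of the major urinary protein family, had a log2 fold change of 0.87 and Gm52725, on chromosome 4, had 0.42. At Gm52725 the GermFree mice had 11.8, 15.2 and 16.6 CPM and the ConvR mice 12.5, 12.1, 8.89, 11.4 and 10.4 CPM, so 1 GermFree mouse fell within the ConvR range. Gm52725 did not pass without ConvR mice 1 and 3 (log2 0.39; edgeR adjusted p = 0.0694).

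**Figure D3:**
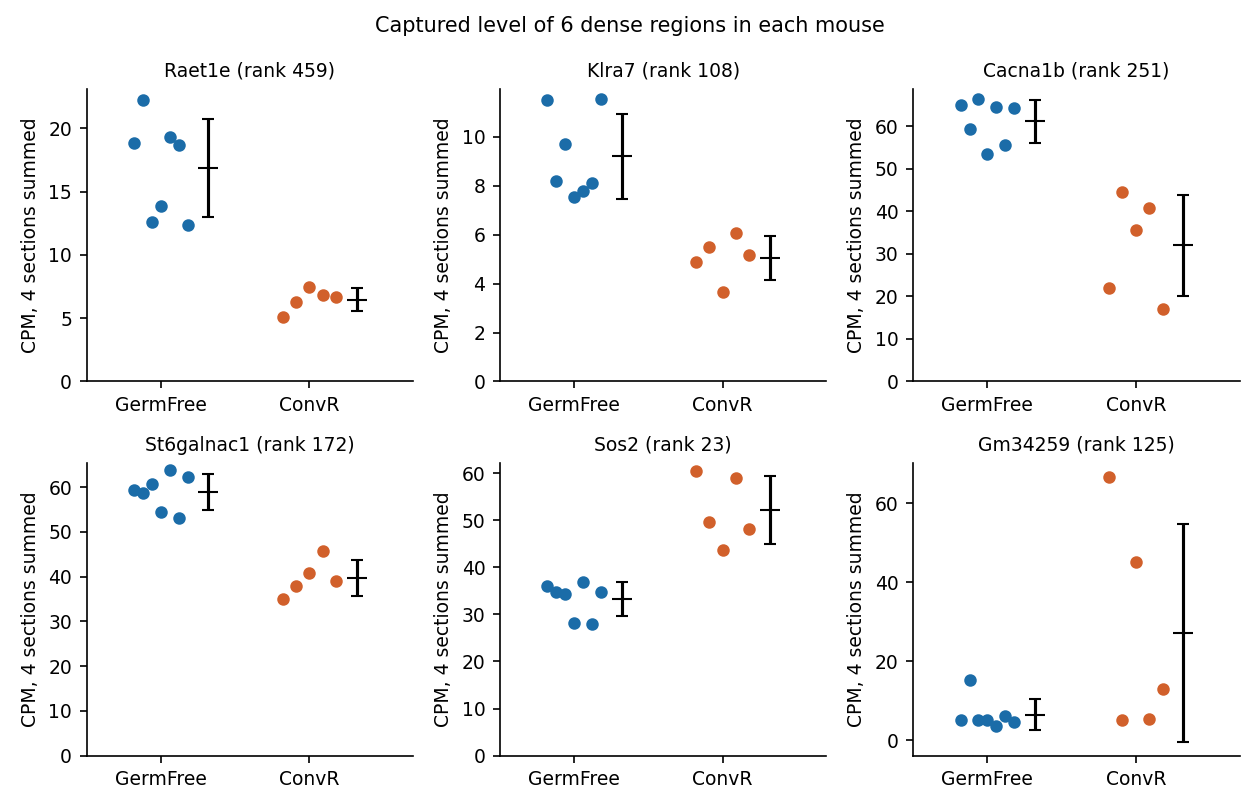
TMM-scaled CPM of 6 members in each mouse, 4 sections summed, for GermFree mice (blue, n = 7) and ConvR mice (orange, n = 5); black marks give the mean ± SD. The groups separate in the first 5 panels, with GermFree mice higher at Raet1e, Klra7, Cacna1b and St6galnac1 and lower at Sos2, whereas at Gm34259 the ConvR values lie between 5.21 and 66.8 CPM.

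In each section alone, fewer members could be tested, because the count filter removed members with low counts. In duodenum 423 were tested and 17 passed, 9 higher and 8 lower in GermFree mice, against 0.466% of all regions (0.423% higher, 0.0425% lower). In jejunum 16 of 449 passed, 6 higher and 10 lower, against 0.344% (0.305% higher, 0.0391% lower). In ileum 31 of 445 passed, 8 higher and 23 lower, against 0.365% (0.316% higher, 0.0491% lower). In colon 15 of 450 passed, 11 higher and 4 lower, against 0.54% (0.512% higher, 0.0283% lower). Uneven regions made up 7 of the 8 lower members in duodenum, 8 of 10 in jejunum, 22 of 23 in ileum and 3 of 4 in colon. All uneven regions but that in Ppp2r2b were in the list partly through their level in ConvR mice 1 and 3. The lower counts therefore cannot be set against the lower shares of all regions. Among members chosen by median density, 1, 2, 2 and 1 passed as lower in duodenum, jejunum, ileum and colon. Without ConvR mice 1 and 3, 9, 7, 7 and 9 members passed in duodenum, jejunum, ileum and colon, against 0.312%, 0.236%, 0.232% and 0.382% of all regions. DESeq2 called 8, 4, 5 and 9 members in duodenum, jejunum, ileum and colon, against 0.226%, 0.149%, 0.17% and 0.256% of all regions. 39 members passed in at least 1 section, and the share of all regions that did so is not given here. 6 members passed in all 4: Sos2, lower, and Raet1e, Ehmt1, Cacna1b (rank 251), LOC115490339 and Gm27047, higher. Of these, Raet1e and Ehmt1 passed under all 21 alternatives in each section. Cacna1b did so except in jejunum with DESeq2, LOC115490339 passed in jejunum under 11 of 21, and Gm27047 passed in jejunum under 18, in ileum under 13 and in colon under 20.

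The numbers of called members also moved with single mice. In duodenum 9 members passed without ConvR mouse 1 (0.403% of all regions in the same fit), 45 without ConvR mouse 2 (0.612%), 10 without ConvR mouse 3 (0.372%), 33 without ConvR mouse 4 (0.5%) and 32 without ConvR mouse 5 (0.412%). There were 26 without GermFree mouse 2 (0.462%), 11 without GermFree mouse 5 (0.397%) and 29 without GermFree mouse 6 (0.607%). In jejunum 8 passed without ConvR mouse 1 (0.289%), 28 without ConvR mouse 2 (0.337%), 10 without ConvR mouse 3 (0.278%) and 25 without ConvR mouse 5 (0.301%), and in ileum 16 without ConvR mouse 1 (0.321%) and 20 without ConvR mouse 3 (0.269%). For the summed sections 18 passed without ConvR mouse 1 (0.463%), 48 without ConvR mouse 2 (0.539%), 17 without ConvR mouse 3 (0.429%), 17 without GermFree mouse 1 (0.438%), 16 without GermFree mouse 5 (0.429%) and 16 without GermFree mouse 7 (0.43%). The members' counts thus moved by more than 1.5 times in fits where the share of all regions stayed between 0.429% and 0.539% for the summed sections. The 13 higher calls of the summed sections moved little, between 12 and 15, under each of these and the other single-mouse exclusions.

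Colon was then set against the mean of duodenum, jejunum and ileum over all 48 libraries, which asks where the captured level differs along the gut. The main fit held no term for the mouse. 108 of 500 members passed, 101 higher and 7 lower in colon, against 2.4% of all regions (1.79% higher and 0.605% lower). The median log2 fold change was 0.18 over the members and 0.00 over all regions, and 352 of 500 members were positive, against 49.8% of all regions. All 108 were even regions, and the 464 even members had a median of 0.20. With the mouse as a block, 171 members passed, 141 higher and 30 lower, against 3.78% of all regions (2.72% higher and 1.05% lower), and these included all 108. 20 of the 30 lower members in that fit were uneven regions. Most uneven regions were in the list through a few libraries, so the lower count of that fit cannot be set against the lower share of all regions.

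**Figure D4:**
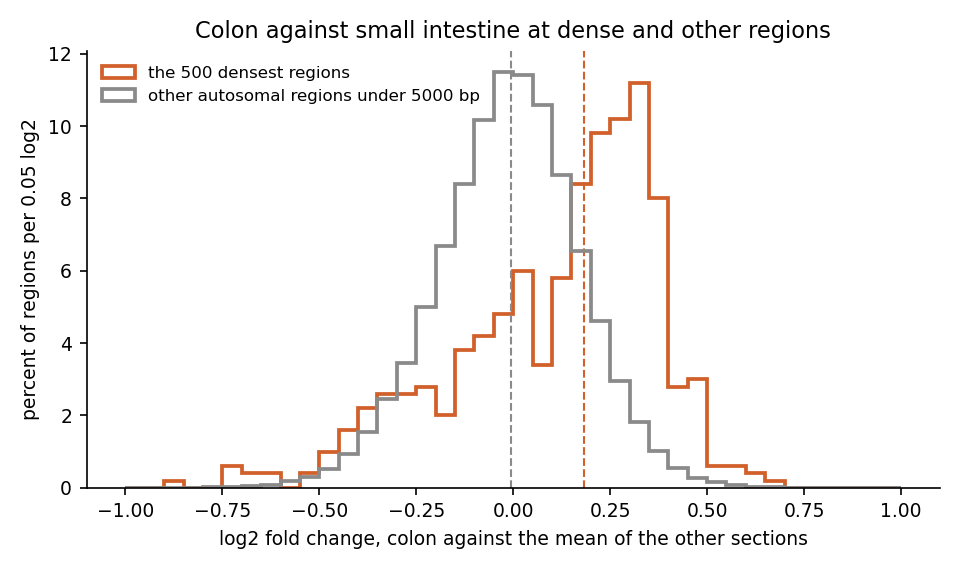
Distribution of the log2 fold change of colon against the mean of duodenum, jejunum and ileum, in percent of regions per 0.05 log2, for the 500 members (orange) and the other autosomal regions under 5000 bp (grey), with dashed lines at the medians. The members' median lies at 0.18, to the right of that of the other regions, and 352 of the 500 members are positive. The distributions overlap.

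The shift was shared by most mice. The even members held 1.34 ± 0.0263% of the counts in colon libraries and 1.18 ± 0.0847% in the mean of the other sections of GermFree mice (SD, n = 7), and 1.27 ± 0.140% and 1.18 ± 0.114% in ConvR mice (SD, n = 5). The share was higher in colon in all 7 GermFree mice and in 3 of 5 ConvR mice, the exceptions being ConvR mice 1 and 3. GermFree mouse 4, with 1.35% in colon and 1.03% in the other sections, had the widest gap, and the ConvR mouse 3 values were 1.06% and 1.12%.

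**Figure D5:**
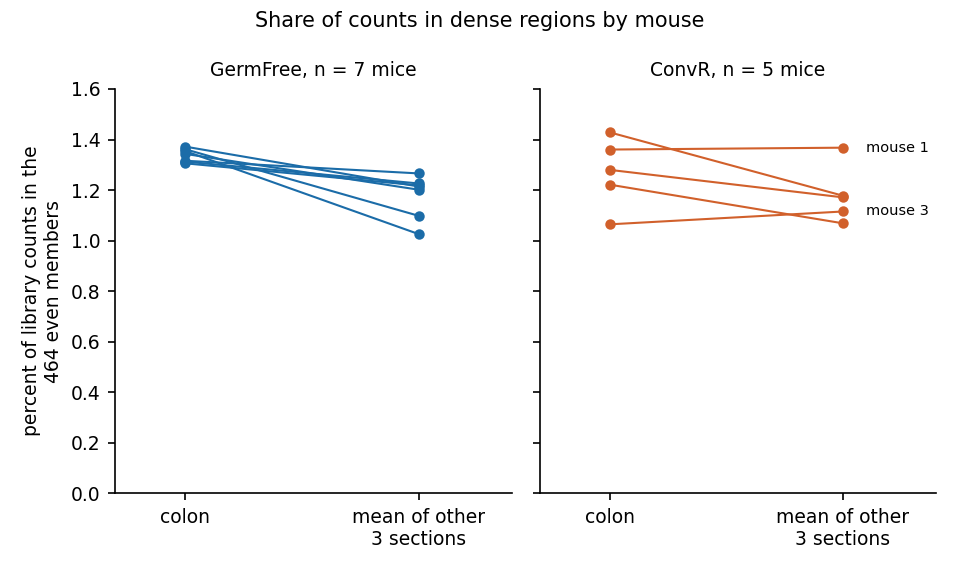
Percent of a library's counts that fell in the 464 even members, in colon and in the mean of duodenum, jejunum and ileum of the same mouse, with 1 line per mouse for GermFree (left, n = 7) and ConvR (right, n = 5). All 7 GermFree lines fall towards the other sections, and those of ConvR mice 1 and 3 do not.

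Fitted within each group, 122 of 485 tested members passed in GermFree mice, 115 higher and 7 lower, against 2.94% of all regions (2.2% higher and 0.74% lower), and 0 of 488 passed in ConvR mice, where 0 of 91070 regions passed edgeR's test. In ConvR mice 115 members had an unadjusted p under 0.05, against 6.61% of all regions. There 322 members had a positive log2 fold change, with a median of 0.11, against 0.24 in GermFree mice. This does not show that the groups differ in the shift; that difference is part of the joint test of variation with section, which passed 0 members. Over both groups together, the count was 62 without GermFree mouse 4 (1.12% of all regions), 62 without ConvR mouse 4 (1.22%) and 49 without ConvR mouse 5 (0.802%); without ConvR mice 1 and 3 it was 128, with 117 higher and 11 lower, against 3.16% of all regions (2.16% higher and 1% lower). DESeq2 called 80 members, against 1.43% of all regions.

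More of the wide and dense members were called higher in colon, in classes of width and rank chosen after the values were seen. Of members wider than 2000 bp 51 of 100 rose, with a median log2 fold change of 0.26, against 1.92% of the other autosomal regions of that width. Of members up to 700 bp wide 7 of 136 rose, against 0.251%. By density, 38 of the first 100 members rose, 26 of the next 100, then 16, 15 and 6 of each further 100. In the 500 regions just outside the list 16 rose and the median log2 fold change was 0.00. Wider and denser regions hold more counts, so the numbers of calls are not comparable between these classes. The median log2 fold changes were 0.20, 0.19, 0.22, 0.15 and 0.13 in the 5 classes of rank.

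By log2 fold change the first 10 of the higher members were at Gm15499 (0.69), a region of chromosome 13 from 12747100 (0.61), Gm21103 (0.61), Gm5114 (0.60), Gm26650 (0.58 and 0.49), Gm30636 (0.51), Pisd-ps1 (0.48), Gm17019 (0.48) and a region of chromosome 17 from 38001632 (0.47). Several of these are narrow regions of few counts: Gm15499 had 3.76, 4.94 and 10.1 CPM in colon and 1.87, 3.44 and 5.13 CPM in the mean of the other sections (lowest, median and highest of 12 mice), and colon was higher in 11 of 12. Pisd-ps1, a pseudogene of a mitochondrial phospholipid enzyme (chromosome 11, 3126647 to 3127923; rank 61), had 20.7, 38.6 and 43.6 CPM in colon and 19.9, 27.8 and 32.9 CPM in the other sections. Colon was higher in 12 of 12 mice there (log2 0.48, SE 0.08; edgeR adjusted p = 0.00058). Sfi1, on the same chromosome, was higher in 12 of 12 mice as well (log2 0.36), and so was Muc3, a membrane mucin gene of the gut (chromosome 5, 137151901 to 137153132; log2 0.42, SE 0.09; edgeR adjusted p = 0.00229). Muc6, a secreted mucin gene, was higher in 10 of 12 mice (log2 0.30).

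Beside 101 higher calls among all 500 members and 1.79% of all regions, of the zinc finger members 9 of 24 rose in colon and 0 fell, with a median log2 fold change of 0.31, and of the predicted gene members 31 of 138 rose and 2 fell, with a median of 0.19, so that the predicted genes were called about as often as all members. The wide Zfp982 region (rank 133; chromosome 4, 147495729 to 147500397) was higher in colon in 12 of 12 mice (log2 0.31, SE 0.07; edgeR adjusted p = 0.0058), and Zfp984 (rank 150) had a log2 fold change of 0.35. The Zfp982 region over the printed promoter (rank 210) had 0.20 and did not pass (edgeR adjusted p = 0.397). In the 11 stretches 40 of 106 members rose and 0 fell, again beside 101 of 500 in all, among them 8 of 17 in the chromosome 8 stretch, 8 of 16 at Zfp978 to Zfp993 and 4 of 9 at the Speer genes, and outside them 61 of 394 rose. The median log2 fold change of a stretch lay between -0.03 and 0.35. Zinc finger members such as Zfp979 and Zfp993 lie in the chromosome 4 stretches, so the counts of list and stretches overlap. Neighbouring members of near-identical sequence may share reads and are not independent, and widths were not matched. The regions at Duxf3 (rank 52; log2 -0.07), Lars2, a mitochondrial tRNA synthetase gene (rank 42; 0.04) and Hjurp (rank 130; 0.04) did not pass.

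The 7 members that were lower in colon stood apart from these stretches. The region of chromosome 12 from 5054911 to 5059790 had 28.5, 39.5 and 55.2 CPM in colon and 47.7, 53.5 and 67.8 CPM in the other sections (lowest, median and highest of 12 mice). It was lower in colon in 12 of 12 mice (log2 -0.46, SE 0.07; edgeR adjusted p = 0.000284). Gm40237, the member with the tandem repeat printed above, had 130, 144 and 168 CPM in colon and 146, 167 and 218 CPM in the other sections. It too was lower in 12 of 12 mice, by a small amount (log2 -0.22, SE 0.06; edgeR adjusted p = 0.0411), and it passed under 12 of 23 alternatives. The others were a region of chromosome 5 from 71400204 (-0.66), Dhx29, a helicase gene of translation (-0.63), Mrtfb, a transcriptional coactivator gene (-0.44), Gm45973 (-0.34) and Mapk6, a protein kinase gene (-0.32). Under the alternatives Dhx29 passed in 12 of 22, Mrtfb in 18 of 23, Gm45973 in 22 of 23 and Mapk6 in 10 of 23.

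A joint test of any difference among the 4 sections passed 65 of 500 members, against 1.17% of all regions, and 151 with the mouse as a block, against 2.55%. None of the 65 was an uneven region, and 31 of the 151 were. Most uneven regions were in the list through a few libraries, so those 31 calls cannot be set against the share of all regions. Without ConvR mice 1 and 3 together the count was 90, against 1.48%, and in DESeq2 45, against 0.7%. The count was 33 without ConvR mouse 1 (0.457% of all regions), 35 without ConvR mouse 2 (0.546%), 17 without ConvR mouse 4 (0.313%), 5 without ConvR mouse 5 (0.0949%) and 13 without GermFree mouse 4 (0.238%). A joint test of variation with section in the contrast of GermFree and ConvR mice passed 0 of 500 members and 0 of all regions in edgeR, and 0 members in DESeq2; 49 members had an unadjusted p under 0.05, or 4754 of all regions (4.96%). With the mouse as a block 8 members passed, against 0.0136% of all regions. All 8 were uneven regions, with Gm34259 first (edgeR adjusted p = 0.00144), followed by Gm24105, Cacng2, Il5, a region of chromosome 3 from 40002649, Zfp266, Atad3aos and a region of chromosome 10 from 91695324, and 0 passed in that fit without ConvR mice 1 and 3. These 8 were in the list partly through their level in ConvR mice 1 and 3. Their number therefore cannot be set against the share of all regions.

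The spread between libraries of a group, as the square root of edgeR's dispersion, had a median of 0.104 in the even members, 0.403 in the uneven members (between 0.299 and 0.543) and 0.0740 over all regions. This value chose neither list, but it uses the same libraries as the limit that set the uneven regions apart and is given as a description.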

How the data were processed

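MBD sequencing counts of 48 libraries in 95882 peak regions were used. The submitters' processing notes name Trim Galore (0.3.7), cutadapt (1.4.2), MACS2 and featureCounts, and the build mm10; the sources used here name no aligner, no treatment of reads with several positions and no set of libraries for the peaks, although every region name in the deposited peak file begins with GermFree. The deposited counts are whole numbers per region and library, not normalized by the authors. The peak score in the deposited bed file was used only for an alternative. The labels do not say whether mice shared cages or litters, so p-values measure the spread between these mice.

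The members were found by their density, and genes were taken from RefSeq GRCm38.p6 (an overlapping gene, else the nearest within 5 kb), which covered 95713 regions. The members and the gene lists were chosen with earlier results of these data known. Named regions were the 10 densest, up to 10 in each direction of each comparison by log2 fold change among those past the threshold (the 5 of smallest p where fewer than 5 passed), the regions at the edge of the list, and up to 4 of each list by density; others were named after their values were seen.

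Counts were tested with edgeR 4.0.16 (TMM scaling, filterByExpr, glmQLFit and glmQLFTest) in R 4.3.3 over all regions, with Benjamini-Hochberg adjustment and a threshold of 0.05; the standard error is the size of the log2 fold change divided by the square root of F. Densities, shares of counts and levels relative to a region's median are on library totals; the CPM of mice and sections set beside a test are on TMM-scaled totals. Scripts were tested on simulated data. Alternatives were DESeq2 1.42.0, other scaling, filters, definitions of the members, and leaving out mice. Sections of a mouse come from 1 animal, so they are paired by design, and only the fits with the mouse as a block used this pairing. The median correlation of their deviations from the group means was 0.0198 over 72 pairs across all regions and 0.405 across the uneven members.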

Additional observations from a re-analysis of the deposited data

Results flagged for a closer look

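Single mice that stood apart from their group were looked for in 84 groups of values, and 16 were found. The values were the share of counts in the members and the 2 median levels in each of the 8 groups of libraries. The summed level of 30 named regions in GermFree and in ConvR mice gave the rest. Chance gives about 1 in 20 independent groups. These groups share mice and regions, and the uneven regions were set apart by high levels in a few libraries. The 16 therefore cannot be read against that rate. In the ileum of ConvR mice, the members held 1.69% of counts in mouse 1 (95% Wilson interval 1.66% to 1.71%), against 1.15% in the next highest. In the ileum of GermFree mice they held 0.929% in mouse 4 (0.918% to 0.94%), against 1.19% in the next lowest, and the even members had a median relative level of 0.746 there, against 0.962. These intervals cover counting error only.

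Most of the other values were high ones of the uneven regions in GermFree mouse 2. Their median relative level was 3.05 in its duodenum, 1.77 in its jejunum and 1.84 in its ileum, against 1.36, 0.876 and 0.887 in the next highest GermFree library of the same section. Summed over sections, GermFree mouse 2 had 15.2 CPM at Gm34259, 21.2 at the region of rank 64, 11.5 at that of rank 167, 8.46 at Stx12, 8.32 at Gm36011, 3.87 at the region of rank 292, 28.1 at Rn7s2 and 13.6 at Gm24105, all above every other GermFree mouse. In the GermFree colon libraries mouse 4 had 1.52, against 0.981 in the next. The region in Aida had 266 CPM in ConvR mouse 1, against 225 in the next highest ConvR mouse.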

How the results depend on the processing

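The share of the 500 members that passed was within 1.5 times the reported one unless named here. For GermFree against ConvR mice, in the order summed sections (5.8%), duodenum (3.4%), jejunum (3.2%), ileum (6.2%) and colon (3.0%), it was 2.8%, 1.6%, 0.8%, 1.0% and 1.8% with DESeq2, 3.3%, 2.0%, 1.8%, 3.5% and 1.9% of the top 1000 regions, and 3.0%, 1.8%, 1.4%, 1.4% and 1.8% without ConvR mice 1 and 3. Chosen by median density it was 2.4%, 1.8%, 1.6% and 1.8% in the first 4, and with regions at or above the median peak score it was 2.4% for the summed sections and 1.6% in duodenum. Leaving out 1 mouse gave 3.2% to 9.6%, 1.8% to 9.0%, 1.6% to 5.6%, 3.2% to 7.6% and 2.6% to 3.4%. For colon against the other sections (21.6%) it was 34.2% with the mouse as a replicate block, 0% in ConvR mice alone, 13% of the top 1000 regions and 9.8% to 31.2% leaving out 1 mouse. For the joint test of sections (13%) it was 30.2% with the block, 23.4% with the block without ConvR mice 1 and 3, 7.5% of the top 1000 regions and 1.0% to 19.4% leaving out 1 mouse. For the joint test of variation with section (0%) the block gave 1.6% and every single-mouse exclusion 0%. The top 1000 regions and the members chosen by median density were taken from the main fits, so the shares of all regions given with those fits apply. For regions at or above the median peak score the share of all regions is not given here. The same holds for the block without ConvR mice 1 and 3. The cause of these moves was not tested.

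As GermFree and ConvR mice of 1 number are different animals, the number pairs no samples between them (median correlation of deviations -0.0111 over 20 pairs). As a replicate block in the summed sections the mouse number gave 26 members and the title code 27, against 29. The share of all regions in these block fits is not given here. Of 102 named results 34 passed under every alternative, and 8 changed sign, all without ConvR mice 1 and 3. None of the 8 passed there, with a lowest edgeR adjusted p of 0.994. They were the regions of rank 78 in colon (log2 0.000771) and jejunum (0.45), Gm36011 (0.058) and rank 167 (0.13) in duodenum, Auts2 (0.21), Gm34259 (0.21) and Rn7s2 (0.13) in jejunum and Stx12 in the summed sections (0.0083). Of 20 named regions of the summed sections 10 passed under all alternatives, and of 17 of the colon comparison 0 did. Members of few counts limit the precision, with a median of 14 to 31 counts per library.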
